A study of Mus musculus with 22 samples.

Results

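The 34 genes described here are markers of astrocytes, chosen by symbol from an expression table of 15725 gene symbols, and each of the 34 was present in it. They were followed in 22 RNA sequencing libraries labelled as microglia in primary culture from mouse, which are brain macrophages. The labels' protocols state that mixed glia from the cortex of newborn C57BL/6J mice (day 1 to 3) were grown for 8 to 10 days, and the loosely attached microglia were collected by shaking at 220 rpm for 1 h. Every culture received lipopolysaccharide (LPS), a molecule of the bacterial outer membrane that activates macrophages, at 100 ng/ml for 24 h. The LPS+siAtg5 group (n = 5) had been transfected for 48 h with 50 nM of a small interfering RNA against Atg5, a gene needed to build autophagosomes. The LPS+dNC group (n = 3) is the comparator that the design text gives for it; the protocol mentions control siRNAs and leaves out their dose. The LPS+Baf A1 group (n = 5) received 10 nM Baf A1, the usual short name of bafilomycin A1, which blocks acidification of lysosomes. The LPS+CLA group (n = 6) received 50 nM CLA, which the labels do not spell out, and the LPS group (n = 3) received LPS with no other agent. The labels do not say whether replicates were separate cultures, so a p-value here speaks only of the spread among the libraries at hand, which may be technical.

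Astrocytes are the glial cells that take up glutamate and potassium from around synapses, hold water channels at the vessels and join one another through gap junctions. Their intermediate filament protein GFAP is the classical mark of the cell type, and several of the 34 genes, among them Nes, Fabp7 and Id3, are also active in immature glia or in other cells. Mixed glial cultures of newborn cortex hold astrocytes beneath the microglia. The labels name microglia as the cell type of every library.

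All values are FPKM, read fragments scaled by gene length and by the fragments mapped in the library, so that levels of different genes can be set side by side. The unit stands in the headers of 19 columns; those of LPS+dNC (3 columns) carry none and their values were taken to be FPKM. Changes are differences of log2(FPKM + 1) with their standard error (SE), a scale that makes the changes of low genes look smaller than they are, and a gene was called at a Benjamini-Hochberg adjusted p under 0.05 in limma, fitted to the 11070 genes that reached 1 FPKM in 3 or more libraries. The Atg5 level lay between 12.6 and 13.5 FPKM in the LPS+siAtg5 libraries, against 21.4 to 24.3 FPKM in the LPS+dNC libraries. The list of 18 microglial genes summed to between 4987 and 7329 FPKM in each of the 22 libraries, with C1qb, C1qc, Tyrobp and Itgam at the highest levels. The LPS+siAtg5 libraries stood apart over the whole table. They had 10752 to 10908 genes at 1 FPKM or more, against 9112 to 9571 in each of the 17 others. The FPKM of the middle gene was 4.53 to 4.80 in them and 2.62 to 3.25 elsewhere. Single libraries stood apart too. LPS+CLA replicate 2 was the lowest of its 6 libraries for 50.0% of all genes tested. Among 3 libraries each, LPS+dNC replicate 1 was the lowest for 46.0% and LPS replicate 3 for 45.9%. An even share is larger among 3 libraries than among 6, so the shares are not alike.

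**Figure D1:**
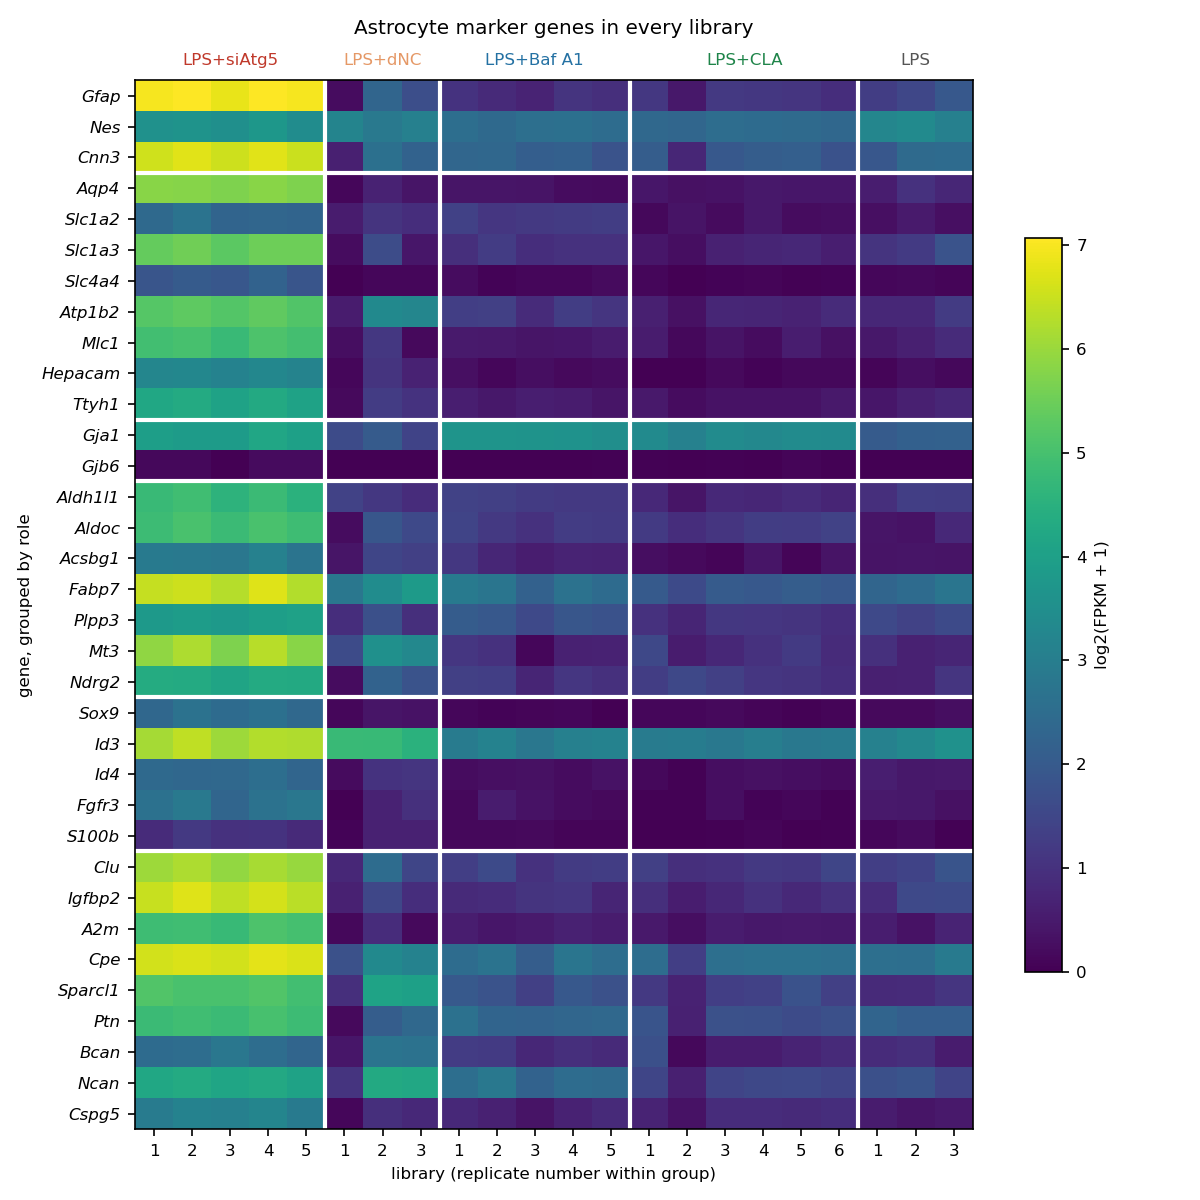
Level of the 34 astrocyte marker genes as log2(FPKM + 1), with 1 row per gene grouped by role (white lines between roles) and 1 column per library, ordered LPS+siAtg5, LPS+dNC, LPS+Baf A1, LPS+CLA and LPS. Every LPS+siAtg5 library lies above every other library in 31 of the 34 rows, the exceptions being Bcan, Gjb6 and Ncan.

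The astrocyte markers were high in the LPS+siAtg5 libraries and low in the other groups. Their FPKM summed to between 1057 and 1260 in the LPS+siAtg5 libraries, to 57.3, 157.5 and 136.1 in the LPS+dNC libraries, to 56.1 to 73.8 with Baf A1, to 32.6 to 53.1 with CLA and to 53.0 to 67.3 with LPS alone. At least 1 FPKM was reached by 32 or 33 of the 34 genes in each LPS+siAtg5 library, and by 6 to 26 of them in each of the 17 others. Every LPS+siAtg5 library exceeded every other library for 31 of the 34 genes, and for 24.4% of all genes tested. In bulk libraries like these, a larger share of astrocytes and more of these RNAs per cell cannot be told apart.

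Against LPS+dNC, 32 of the 34 genes were called higher in LPS+siAtg5, none was called lower, Bcan was not called and Gjb6 was too low to be tested. Of all genes tested, 59.6% were called higher and 81.2% were called in either direction in this comparison. The median change of the 33 tested markers was 2.85, against 0.34 over all genes tested, a distance of 2.51. The filter let 11 of the 33 pass only through their levels in the LPS+siAtg5 libraries, so these had to differ and their p-values are given as a description only: Aqp4, S100b, Sox9, A2m, Fgfr3, Mlc1, Slc4a4, Id4, Ttyh1, Hepacam and Cspg5. Of the 22 that also passed on the 17 other libraries alone, 21 were called higher, with a median change of 2.97. Against LPS, 33 of the 34 were called higher, beside 61.2% of all genes tested (76.8% in either direction), with a median change of 3.49 against 0.31 over all genes; of the same 22, 22 were called higher. Both comparisons use the same LPS+siAtg5 libraries. Scaling the libraries by median of ratios took the median over all genes to 0.05 against LPS+dNC, with 4563 genes higher and 3990 lower of 10926, where the deposited FPKM gave 6594 higher and 2394 lower of 11070; 30 markers were called higher and none lower.

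The filament and cytoskeleton genes held the largest single change. Gfap, the glial fibrillary acidic protein, was at 124.2, 133.5, 113.9, 132.1 and 125.8 FPKM in the LPS+siAtg5 libraries, at 0.17, 3.99 and 2.27 FPKM in the LPS+dNC libraries and at 1.42, 1.83 and 2.89 FPKM in the LPS libraries. No library outside LPS+siAtg5 came near the lowest of the 5. The change was 5.57 ± 0.29 (SE) against LPS+dNC (adjusted p = 2.31e-13) and 5.41 ± 0.29 against LPS (adjusted p = 6.94e-13). Cnn3, the actin-binding protein calponin 3, averaged 97.9 ± 8.31 FPKM (SD) in LPS+siAtg5, 3.10 ± 2.33 in LPS+dNC and 3.92 ± 0.99 in LPS. It rose by 4.81 ± 0.33 against LPS+dNC (adjusted p = 3.48e-11).

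Nes, the filament protein nestin of neural progenitors and immature astrocytes, behaved differently from these 2 genes. Its level was 11.0, 11.4, 10.5, 12.3 and 9.88 FPKM in the LPS+siAtg5 libraries, 8.15, 6.25 and 7.47 in those of LPS+dNC and 8.55, 9.49 and 7.41 in those of LPS. Every LPS+siAtg5 library lay above every LPS+dNC and LPS library, but the distances were small, and LPS+dNC and LPS overlapped. The change was 0.54 ± 0.08 against LPS+dNC (adjusted p = 2.55e-06), 0.20 above the median of all genes. Against LPS it was 0.34 ± 0.08 (adjusted p = 6.25e-04), only 0.03 above that median, and under median-of-ratios and quantile scaling it was 0.02 and not called.

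Among the 8 genes of water, glutamate and ion transport the changes against LPS+dNC ran from 1.56 to 5.36. Of these, 5 had passed the filter only through LPS+siAtg5, and the 3 others, Slc1a2, Slc1a3 and Atp1b2, were called higher, beside 59.6% of all genes tested. Aqp4, the water channel of astrocyte endfeet, was at 55.2, 54.6, 51.1, 55.0 and 51.3 FPKM in LPS+siAtg5, at 0.09, 0.60 and 0.32 FPKM in LPS+dNC and at 0.47, 1.00 and 0.68 FPKM in LPS. It reached 1 FPKM in the LPS+siAtg5 libraries and in LPS replicate 2. Its change against LPS+dNC was 5.36 ± 0.10 (adjusted p = 1.44e-21), for a gene that the filter admitted only through LPS+siAtg5. Slc1a3, the glutamate transporter GLAST, had 41.6, 45.3, 38.0, 45.0 and 44.7 FPKM in the LPS+siAtg5 libraries, 0.17, 2.13 and 0.34 in those of LPS+dNC and 1.09, 1.28 and 2.50 in those of LPS. It rose by 4.69 ± 0.22 against LPS+dNC (adjusted p = 1.17e-14). Slc1a2, the glutamate transporter GLT-1 that mature astrocytes carry in large amounts, was far lower. It had 4.33, 5.53, 3.83, 4.07 and 3.87 FPKM in the LPS+siAtg5 libraries, 0.46, 1.09 and 0.90 in those of LPS+dNC and 0.23, 0.42 and 0.22 in those of LPS. Its change against LPS+dNC was 1.56 ± 0.11 (adjusted p = 1.41e-11).

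Atp1b2, the beta 2 subunit of the sodium-potassium pump, had 35.8, 38.8, 35.2, 39.4 and 34.4 FPKM in the LPS+siAtg5 libraries, 0.46, 9.28 and 8.47 in those of LPS+dNC and 0.74, 0.74 and 1.35 in those of LPS. The LPS+dNC libraries were split, with replicate 1 below each LPS library and the other two above them. Its change against LPS+dNC was 2.85 ± 0.39 (adjusted p = 1.08e-06). The membrane protein Mlc1 averaged 30.2 FPKM in LPS+siAtg5, against 0.52 FPKM in LPS+dNC, and the cell adhesion protein Hepacam, its binding partner, 8.35 and 0.59 FPKM. Ttyh1, a membrane protein of the tweety family, averaged 17.4 FPKM in LPS+siAtg5, against 0.86 FPKM in LPS+dNC, and the bicarbonate transporter Slc4a4 2.96 and 0.06 FPKM.

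The 2 gap junction genes stood at very different levels. Gja1, which encodes connexin 43, the main connexin of astrocytes, had 14.5, 13.7, 13.8, 17.2 and 15.3 FPKM in the LPS+siAtg5 libraries, 2.05, 3.05 and 1.69 in those of LPS+dNC and 3.05, 3.50 and 3.57 in those of LPS. It rose by 2.30 ± 0.10 against LPS+dNC (adjusted p = 2.71e-15) and by 1.86 ± 0.10 against LPS (adjusted p = 2.17e-13). Gjb6, which encodes connexin 30 of mature astrocytes, was listed at 0.12, 0.11, 0, 0.16 and 0.15 FPKM in LPS+siAtg5, and it was listed at 0 in every LPS+dNC and LPS library. Its highest value elsewhere was 0.06 FPKM, in LPS+CLA replicate 5, below the filter of the test. With no filter it was called higher in LPS+siAtg5 against both groups.

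All 7 genes of metabolism were called higher against LPS+dNC, beside the 59.6% of all genes, and each also passed the filter without the LPS+siAtg5 libraries. Aldh1l1, a folate enzyme much used to label astrocytes, was at 26.7, 28.7, 22.9, 27.4 and 21.9 FPKM in LPS+siAtg5, at 1.65, 1.21 and 0.85 FPKM in LPS+dNC and at 0.95, 1.47 and 1.45 FPKM in LPS. Aldoc, the brain form of the glycolytic enzyme aldolase, was at 27.6, 32.0, 27.1, 32.2 and 28.3 FPKM in LPS+siAtg5, at 0.18, 2.72 and 1.97 FPKM in LPS+dNC and at 0.33, 0.28 and 0.76 FPKM in LPS. The change against LPS+dNC was 3.58 ± 0.12 for Aldh1l1 (adjusted p = 2.86e-17) and 3.69 ± 0.23 for Aldoc (adjusted p = 1.39e-12). Fabp7, the fatty acid binding protein of radial glia and young astrocytes, had 87.0, 90.8, 76.7, 105.1 and 76.1 FPKM in the LPS+siAtg5 libraries, 5.95, 9.93 and 13.5 in those of LPS+dNC and 3.99, 4.50 and 5.72 in those of LPS. Each LPS+dNC library was above each LPS library, though well below LPS+siAtg5, and the change against LPS+dNC was 3.08 ± 0.18 (adjusted p = 8.31e-13). Mt3, a zinc-binding metallothionein of the brain, averaged 63.0 ± 11.9 FPKM (SD) in LPS+siAtg5, 7.20 ± 4.55 in LPS+dNC and 0.74 ± 0.22 in LPS. The lipid enzymes Plpp3 and Acsbg1 averaged 14.0 and 6.40 FPKM in LPS+siAtg5, against 1.39 and 1.21 FPKM in LPS+dNC. Ndrg2, a cytoplasmic protein enriched in astrocytes, averaged 18.4 FPKM in LPS+siAtg5, against 2.13 FPKM in LPS+dNC.

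The transcription factors, the receptor and the calcium-binding protein changed by 0.53 to 2.21 against LPS+dNC, and of these 5 genes Id3 alone passed the filter without the LPS+siAtg5 libraries. Sox9, a transcription factor of the astrocyte lineage, was at 4.18, 5.29, 4.55, 5.05 and 4.21 FPKM in LPS+siAtg5, at 0.08, 0.33 and 0.27 FPKM in LPS+dNC and at 0.14, 0.13 and 0.20 FPKM in LPS. Its change against LPS+dNC was 2.21 ± 0.08 (adjusted p = 3.80e-17). Id3, an inhibitor of basic helix-loop-helix factors that many cell types make, had 68.8, 83.4, 65.2, 75.8 and 74.5 FPKM in the LPS+siAtg5 libraries, 26.9, 26.3 and 21.98 in those of LPS+dNC and 7.54, 8.93 and 10.9 in those of LPS. The 3 groups formed separate steps without overlap, and the LPS+dNC libraries lay close together here, replicate 1 being the highest. The change was 1.52 ± 0.10 against LPS+dNC (adjusted p = 2.67e-12). Its relative Id4 averaged 4.32 FPKM in LPS+siAtg5, against 0.78 FPKM in LPS+dNC, and the growth factor receptor Fgfr3 5.36 and 0.53 FPKM. S100b, a calcium-binding protein of mature astrocytes, had 0.84, 1.24, 1.02, 1.06 and 0.78 FPKM in the LPS+siAtg5 libraries, 0.04, 0.57 and 0.58 in those of LPS+dNC and 0.08, 0.16 and 0.03 in those of LPS. Its change of 0.53 ± 0.10 against LPS+dNC (adjusted p = 5.08e-05) became -0.24 under quantile normalization, so its direction depends on the scaling.

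Among the 9 secreted and matrix proteins, A2m and Cspg5 passed the filter only through LPS+siAtg5. Of the 7 others 6 were called higher against LPS+dNC, beside 59.6% of all genes tested. Clu, the extracellular chaperone clusterin, had 64.1, 72.7, 59.5, 70.2 and 62.6 FPKM in the LPS+siAtg5 libraries, 0.74, 4.66 and 1.76 in those of LPS+dNC and 1.49, 1.69 and 2.59 in those of LPS. Cpe, the peptide-processing carboxypeptidase E, had 95.2, 100.6, 94.9, 108.2 and 100.1 FPKM in the LPS+siAtg5 libraries, 2.38, 9.26 and 7.81 in those of LPS+dNC and 4.96, 4.93 and 6.33 in those of LPS. The changes against LPS+dNC were 4.47 ± 0.23 for Clu (adjusted p = 1.15e-13) and 3.90 ± 0.30 for Cpe (adjusted p = 1.67e-10). Igfbp2, which binds insulin-like growth factors, changed by 5.48 ± 0.17, and averaged 90.5 FPKM in LPS+siAtg5, against 1.10 FPKM in LPS+dNC. The protease inhibitor A2m averaged 29.5 and 0.37 FPKM, the growth factor pleiotrophin, Ptn, 28.5 and 2.52 FPKM, and the proteoglycan Cspg5 7.32 and 0.59 FPKM, each with LPS+siAtg5 first.

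Among the secreted and matrix genes, Sparcl1, Ncan and Bcan had the LPS+dNC means nearest to LPS+siAtg5. Sparcl1, a secreted protein of astrocytes that acts on synapses, had 34.5, 31.9, 32.0, 34.9 and 29.4 FPKM in the LPS+siAtg5 libraries, 0.92, 16.3 and 15.3 in those of LPS+dNC and 0.80, 0.83 and 1.12 in those of LPS. Ncan, the proteoglycan neurocan, had 17.6, 18.9, 16.9, 18.2 and 16.0 FPKM in the LPS+siAtg5 libraries, 1.10, 18.5 and 17.8 in those of LPS+dNC and 2.28, 2.58 and 1.74 in those of LPS. Bcan, the proteoglycan brevican, had 4.52, 4.74, 5.93, 4.76 and 3.96 FPKM in the LPS+siAtg5 libraries, 0.35, 5.54 and 5.37 in those of LPS+dNC and 0.83, 0.95 and 0.45 in those of LPS. For Ncan and Bcan, LPS+dNC replicates 2 and 3 lay within or next to the LPS+siAtg5 range and replicate 1 lay far below it. The change against LPS+dNC was 2.04 ± 0.45 for Sparcl1 (adjusted p = 3.46e-04), 1.01 ± 0.46 for Ncan (adjusted p = 0.0486) and 0.59 ± 0.38 for Bcan (adjusted p = 0.156). Without LPS+dNC replicate 1 the change of Ncan was -0.0495 (adjusted p = 0.811) and that of Bcan -0.17 (adjusted p = 0.547). The call of Ncan was also lost when any single LPS+siAtg5 library was left out; Bcan was called higher when LPS+dNC replicate 2 or replicate 3 was left out.

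**Figure D2:**
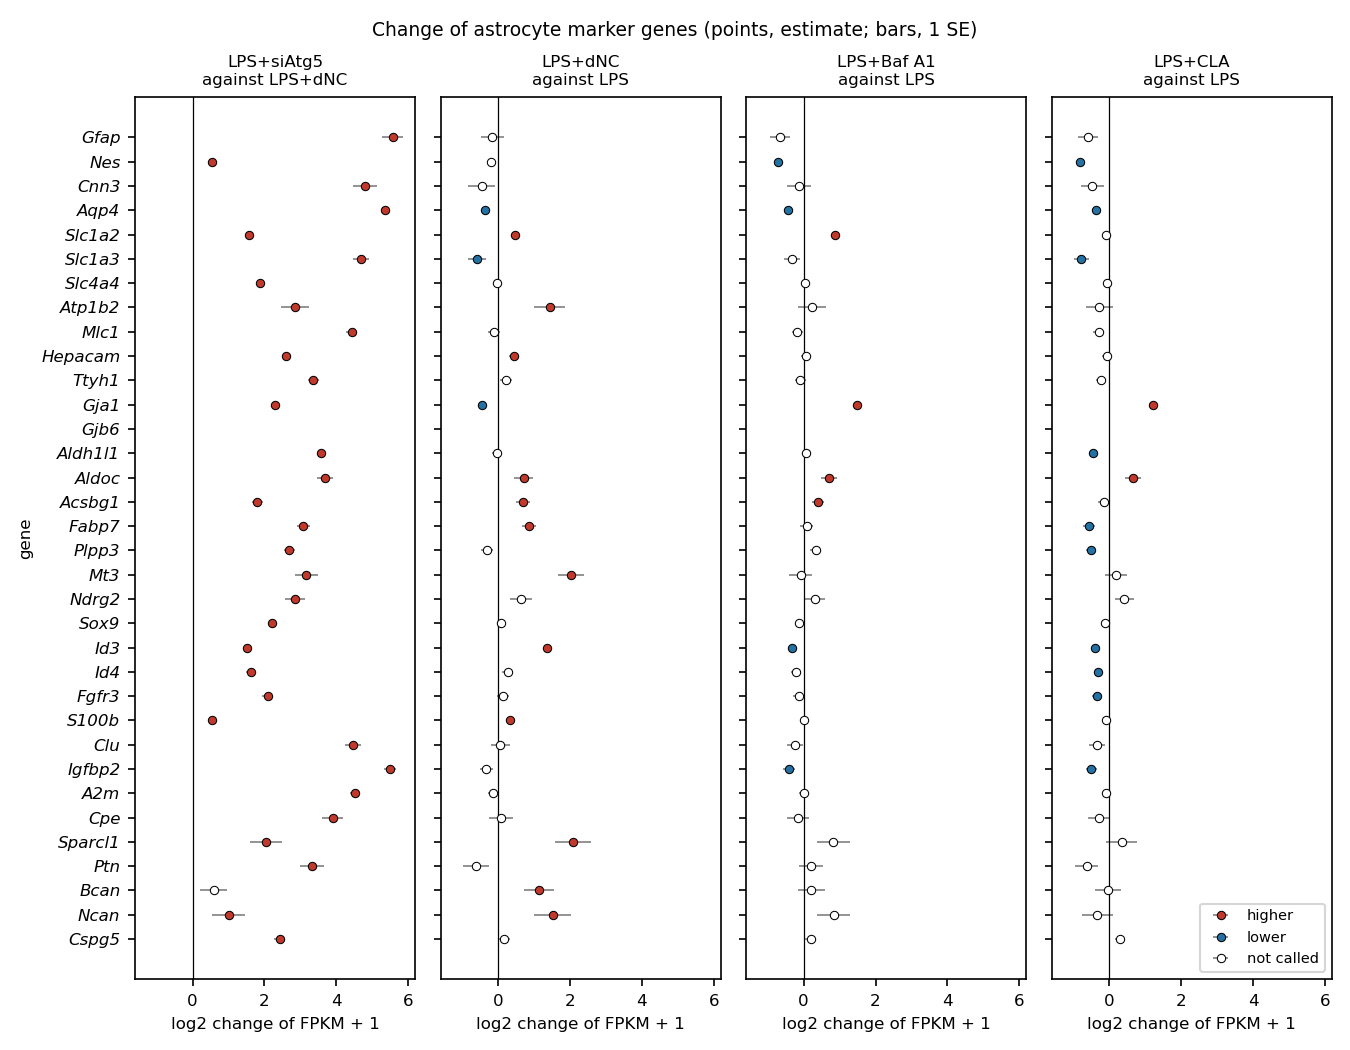
Difference of log2(FPKM + 1) for each of the 33 tested marker genes (points, with bars of 1 SE) in LPS+siAtg5 against LPS+dNC, LPS+dNC against LPS, LPS+Baf A1 against LPS and LPS+CLA against LPS, filled where called at an adjusted p under 0.05. In the first panel 32 of 33 genes are called higher, with Gfap at 5.57; in the others the medians are 0.13, 0.01 and -0.29, with 15, 8 and 12 calls, 10 of the 12 with CLA being lower.

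Because the markers rose together in one group, the stretch of 250 bases before the start of 4 of them was read from RefSeq (build GRCm38.p6): Gfap for the largest change, Slc1a3 and Gja1 because they moved in opposite directions in the CLA libraries, and Id3 because it stepped up in LPS+dNC as well. Capitals mark a STAT motif (TTCNNNGAA), an AP-1 motif (TGANTCA) or an arm of a nuclear factor I site (TTGGC), searched on both strands.
Gfap, chr11:102897201-102897450, minus strand: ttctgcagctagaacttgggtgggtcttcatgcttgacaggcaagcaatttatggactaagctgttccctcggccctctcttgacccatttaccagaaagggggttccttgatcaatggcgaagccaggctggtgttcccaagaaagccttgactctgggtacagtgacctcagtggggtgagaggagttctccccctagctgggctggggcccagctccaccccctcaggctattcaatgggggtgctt
Slc1a3, chr15:8710808-8711057, minus strand: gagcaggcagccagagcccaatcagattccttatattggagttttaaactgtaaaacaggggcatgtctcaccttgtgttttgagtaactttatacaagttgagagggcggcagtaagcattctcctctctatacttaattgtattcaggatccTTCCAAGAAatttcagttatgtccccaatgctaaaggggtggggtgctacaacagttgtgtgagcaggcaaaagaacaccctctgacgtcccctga
Gja1, chr10:56377050-56377299, plus strand: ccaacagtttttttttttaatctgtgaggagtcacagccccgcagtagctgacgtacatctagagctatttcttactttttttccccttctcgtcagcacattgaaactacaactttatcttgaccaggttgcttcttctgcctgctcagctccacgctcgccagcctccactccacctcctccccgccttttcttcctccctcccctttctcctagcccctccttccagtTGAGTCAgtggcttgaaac
Id3, chr4:136143572-136143821, plus strand: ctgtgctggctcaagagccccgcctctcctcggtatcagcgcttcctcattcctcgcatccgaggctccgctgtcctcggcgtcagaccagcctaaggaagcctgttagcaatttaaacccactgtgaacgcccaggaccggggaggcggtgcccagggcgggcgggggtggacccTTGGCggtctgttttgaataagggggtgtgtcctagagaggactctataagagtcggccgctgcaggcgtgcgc

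Slc1a3 held the STAT motif at positions -96 to -88 from its start, Gja1 the AP-1 motif at -19 to -13 and Id3 the TTGGC arm at -74 to -70, while the Gfap stretch held none of the 3. A promoter entry was found for 26 of the 34 markers. A gene was counted when any of its promoters held a motif, and some of the 26 have more than 1 promoter. The STAT motif was found for 3 of the 26 and for 8.13% of all 27025 genes with a promoter, the AP-1 motif for 2 of the 26 and 7.82%, and the TTGGC arm for 14 of the 26 and 45.3%. An E-box (CANNTG) was found for 16 of the 26 and 69.3% of all genes, and the SOX motif ACAAAG for 0 of the 26 and 18.6%. These matches describe the letters only.

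Whether the markers move together was also looked at within the 5 LPS+siAtg5 libraries, where the groups play no part. For each of the 33 tested genes the distance from the LPS+siAtg5 mean was taken on the log2(FPKM + 1) scale. In replicate 4, 32 of the 33 markers lay above the group mean and the median distance was 0.10. In replicate 2, 27 lay above it, with a median of 0.08. Replicate 3 had 3 of the 33 above the mean, with a median of -0.10, replicate 5 had 9 above it, also with a median of -0.10, and replicate 1 had 11 above it, with a median of -0.03. The markers thus went up or down mostly together from library to library, by little. Over all genes tested, the share above the group mean was 48.3%, 55.3%, 44.5%, 54.4% and 47.9% in replicates 1 to 5, with medians within 0.01 of 0.

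Replicate 3 held the lowest value for 16 of the 33 markers and replicate 5 for 14, beside 21.8% and 23.7% of all genes tested. The highest value was in replicate 4 for 17 and in replicate 2 for 12, beside 24.8% and 22.3% of all genes. Exceptions were present. Bcan was highest in replicate 3, at 0.27 above its group mean, Fgfr3 lay 0.34 below its mean in replicate 3 and 0.13 above it in replicate 5, and Slc1a2 was the only marker below its mean in replicate 4. With 5 libraries no correlation across them was computed. The summed markers were highest in replicate 4, at 1260 FPKM, and lowest in replicate 3, at 1057 FPKM. The neuronal list was highest in replicate 4, at 85.6 FPKM, and lowest in replicate 5, at 67.7 FPKM, and the fibroblast and mural list was highest in replicate 4, at 171.9 FPKM, and lowest in replicate 1, at 128.5 FPKM. The microglial list was highest in replicate 5, at 6788 FPKM, and lowest in replicate 1, at 6515 FPKM.

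**Figure D3:**
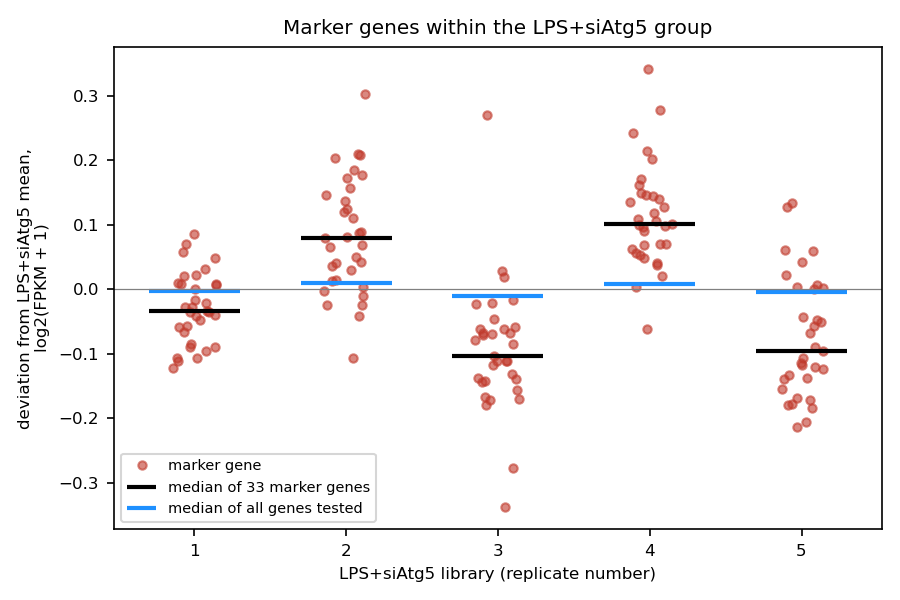
Distance of each of 33 astrocyte marker genes (points) from the mean of the LPS+siAtg5 group in log2(FPKM + 1), for the 5 LPS+siAtg5 libraries, with the median of the markers (black) and of all genes tested (blue). The markers sit above 0 in replicates 2 and 4, with medians of 0.08 and 0.10, and below 0 in replicates 3 and 5, while the medians of all genes stay within 0.01 of 0.

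The counts of other lists in LPS+siAtg5 against LPS+dNC stand beside the 59.6% of all genes called higher and 21.6% called lower in that comparison. Of the 29 tested genes from a list of 42 other astrocyte genes, 27 were called higher, the transcription factor Lhx2 was called lower and the receptor Notch1 was not called, at 15.9 ± 0.34 FPKM (SD) in LPS+siAtg5 and 17.9 ± 3.87 in LPS+dNC. Of the 29, 17 had passed the filter only through LPS+siAtg5; of the 12 that passed without it, 10 were called higher and 1 lower. Glul, the glutamine synthetase of astrocytes, averaged 103.8 ± 6.08 FPKM (SD) in LPS+siAtg5 and 37.0 ± 12.2 in LPS+dNC, and the filament gene Vim 668.2 ± 41.7 and 501.0 ± 49.9. The reactive astrocyte list split, with 14 called higher and 6 lower of 20; of the 13 that passed without LPS+siAtg5, 7 were higher and 6 lower. Lcn2, an iron-carrier binding protein also made by activated macrophages, averaged 835.7 ± 100.6 FPKM in LPS+siAtg5 and 6548 ± 411.2 in LPS+dNC. It averaged 1365 FPKM with LPS, 1448 with Baf A1 and 1113 with CLA, so LPS+dNC stood far above all other groups. Complement C3 averaged 261.4 ± 11.8 FPKM in LPS+siAtg5, 373.4 ± 81.6 in LPS+dNC and 567.0 in LPS.

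Genes of some cell types other than astrocytes were higher too. All 10 tested of 14 neuronal genes were called higher against LPS+dNC, 7 of them being genes that passed the filter without LPS+siAtg5, and the list summed to 67.7 to 85.6 FPKM in LPS+siAtg5, 2.12 to 17.5 in LPS+dNC, 9.16 to 13.8 with Baf A1, 1.18 to 9.22 with CLA and 15.8 to 20.2 with LPS. Map2, a microtubule protein of neurons, averaged 19.8 FPKM in LPS+siAtg5, against 2.27 FPKM in LPS+dNC. All 8 tested of 10 fibroblast and mural genes were called higher, 6 of them passing without LPS+siAtg5. The list summed to 128.5 to 171.9 FPKM in LPS+siAtg5 and 4.07 to 15.2 in LPS+dNC. It summed to 17.2 to 23.4 with Baf A1, 11.4 to 27.1 with CLA and 10.8 to 16.0 with LPS. Against LPS, 7 of the 8 were called higher, without Dcn, beside 61.2% of all genes tested. Of the 7, Pdgfrb and Myl9 had passed the filter only through LPS+siAtg5. Dcn averaged 6.21 FPKM in LPS+siAtg5, 2.01 in LPS+dNC, 9.73 with Baf A1, 10.6 with CLA and 8.63 with LPS. Smooth muscle actin, Acta2, averaged 47.7 FPKM in LPS+siAtg5, against 1.48 FPKM in LPS+dNC. Rgs5, a pericyte marker, was listed at 0 in every library outside LPS+siAtg5. In each LPS+siAtg5 library it was under 1 FPKM, too low to be tested. Of 14 oligodendrocyte lineage genes only 7 could be tested, and of these 6 were called higher and none lower. Pdgfra had passed the filter only through LPS+siAtg5, and of the 6 others 5 were called higher. The ependymal genes Foxj1 and Rsph1 passed the filter only through LPS+siAtg5, with means of 5.33 and 1.84 FPKM there, against 0.08 and 0.04 FPKM in LPS+dNC. Endothelial genes did not follow, with 0 higher and 2 lower (Flt1 and Kdr) of 4. Of the 18 microglial genes 14 were called higher and 3 lower, beside 59.6% and 21.6% of all genes tested. Of the 17 that passed without LPS+siAtg5, all but Sall1, 13 were called higher and 3 lower. The median change of the 18 was 0.48 against 0.34 over all genes. The microglial list summed to 6515 to 6788 FPKM in LPS+siAtg5, 4987 to 5857 in LPS+dNC and 6441 to 6556 in LPS. The part of other cells in the marker result was not tested.

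Outside LPS+siAtg5 the markers did not keep 1 ratio to each other. For the 32 genes averaging at least 1 FPKM in LPS+siAtg5, the level elsewhere was taken as a percent of that average. The median was 8.43% in LPS+dNC, 4.68% with Baf A1, 2.79% with CLA and 4.03% with LPS. In LPS+dNC the range ran from 0.63% for Aqp4 to 78.5% for Bcan, with Id3, Sparcl1, Bcan, Ncan and Nes over 25%. With Baf A1 it ran from 0.48% for Aqp4 to 75.3% for Gja1, with CLA from 0.59% for Aqp4 to 61.1% for Gja1, and with LPS from 1.18% for Mt3 to 77.1% for Nes. A gene at the top in one group was thus not always at the top in another: Gja1 was high with Baf A1 and CLA, and Bcan in LPS+dNC.

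**Figure D4:**
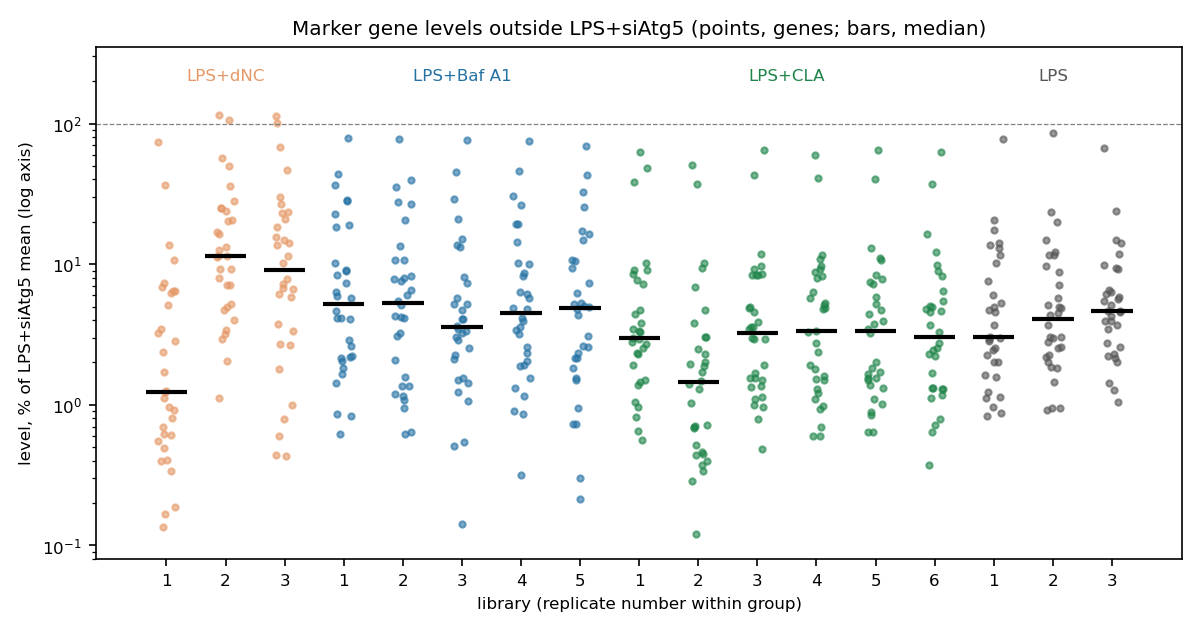
Level of each of 32 astrocyte marker genes (points) in the 17 libraries outside LPS+siAtg5, as a percent of its LPS+siAtg5 mean on a log axis (dashed line, 100%), with the median of each library (bar). Of 544 values, 1 was at 0 and is not drawn. LPS+dNC replicate 1 has a median of 1.24%, against 11.4% and 9.03% in replicates 2 and 3.

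The 3 LPS+dNC libraries differed most among themselves. Replicate 1 was below both others for 28 of the 34 markers, beside 46.0% of all genes tested, and replicate 2 was above both others for 25, beside 36.6%. The 6 markers for which replicate 1 was not the lowest were Aldh1l1, Gja1, Gjb6, Mlc1, Id3 and Nes. Neuronal genes went the same way, summing to 2.12 FPKM in replicate 1 and to 15.3 and 17.5 FPKM in replicates 2 and 3. Against LPS, 12 markers were called higher in LPS+dNC and 3 lower. This is 15 of 33, beside 57.2% of all genes tested (29.0% higher and 28.1% lower). Of the 22 markers that passed the filter without LPS+siAtg5, 10 were called higher and 2 lower. The calls with the largest change were Sparcl1 at 2.09 ± 0.50 (adjusted p = 0.00137), Mt3 at 2.02 ± 0.36 (adjusted p = 5.80e-05), Ncan at 1.53 ± 0.51 (adjusted p = 0.0154), Atp1b2 at 1.44 ± 0.44 (adjusted p = 0.00781) and Id3 at 1.37 ± 0.11 (adjusted p = 4.00e-10). Mt3 had 2.05, 10.7 and 8.85 FPKM in LPS+dNC and 0.99, 0.58 and 0.66 FPKM in LPS. Every LPS+dNC library lay above every LPS library for 5 markers, beside 27.5% of all genes tested: Slc1a2, Id3, Mt3, Fabp7 and Acsbg1. The lower calls were Aqp4 at -0.37, Slc1a3 at -0.59 and Gja1 at -0.44. Without LPS+dNC replicate 1 there were 17 higher and 2 lower calls, beside 56.4% of all genes called. The calls of Aqp4 and Slc1a3 were then lost. Without replicate 2 there were 6 higher and 7 lower, beside 53.4% of all genes. Ncan was then at 0.98 (adjusted p = 0.110) and Atp1b2 at 0.95 (adjusted p = 0.0642). Without replicate 3 the calls of Ncan (1.01, adjusted p = 0.109) and Atp1b2 (1.01, adjusted p = 0.0591) were lost as well. With only LPS+dNC and LPS in the fit there were 4 calls of 18 tested, beside 48.8% of all genes. Sparcl1, Ncan and Atp1b2 were not among them.

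With Baf A1 markers were called in both directions. Against LPS, 4 were called higher, 4 lower and 25 were not called. This is 8 of 33, beside 57.8% of all genes tested (32.7% higher and 25.1% lower). The median change was 0.01 against 0.04 over all genes. Of the 33, 11 had passed the filter only through LPS+siAtg5, and of the other 22, 4 were called higher and 3 lower. With only LPS+Baf A1 and LPS in the fit, 19 markers passed the filter. Of these, 6 were called higher and 4 lower, which is 10 of 19 beside 62.9% of all genes. Gja1 stood out, at 11.7, 11.6, 11.3, 11.2 and 10.4 FPKM with Baf A1 and 3.05, 3.50 and 3.57 FPKM with LPS. Its change was 1.48 ± 0.10 (adjusted p = 3.34e-11). Slc1a2 had 1.59, 1.16, 1.26, 1.33 and 1.42 FPKM with Baf A1 and 0.23, 0.42 and 0.22 FPKM with LPS, a change of 0.87 ± 0.11 (adjusted p = 6.95e-07). Each Baf A1 library was above each LPS library for both genes, as it was for 6 of the 34 markers, beside 30.8% of all genes tested. For 5 markers each Baf A1 library was below each LPS library, beside 21.9%. Some of these were not called: Sparcl1 averaged 2.43 FPKM with Baf A1 and 0.92 FPKM with LPS, Gfap 0.90 and 2.05 FPKM, and Ncan averaged 4.76 FPKM with Baf A1, above the 1.74 to 2.58 FPKM of the LPS libraries. Sox9 and Id4, both below 1 FPKM in these groups, were the others not called. Aldoc changed by 0.69 ± 0.23 (adjusted p = 0.0116) and Acsbg1 by 0.39 ± 0.17 (adjusted p = 0.0484).

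The 4 lower calls with Baf A1 were led by Nes, at 4.85, 4.34, 4.95, 5.07 and 4.71 FPKM with Baf A1 and 8.55, 9.49 and 7.41 FPKM with LPS. It fell by 0.71 ± 0.08 on the log2 scale (adjusted p = 1.29e-07), and no library of one group reached the other. Aqp4, at 0.16 to 0.33 FPKM with Baf A1 and 0.47 to 1.00 FPKM with LPS, changed by -0.44 ± 0.10 (adjusted p = 7.33e-04). It had passed the filter only through LPS+siAtg5. Id3 ranged from 5.95 to 7.85 FPKM with Baf A1 and from 7.54 to 10.9 FPKM with LPS (-0.31 ± 0.10, adjusted p = 0.00977), and Igfbp2 from 0.66 to 1.19 and from 0.87 to 2.0 FPKM (-0.42 ± 0.17, adjusted p = 0.0358). For both genes the groups overlapped. Gja1, Slc1a2, Nes and Aqp4 kept their calls whichever single library was left out. Those of Aldoc, Acsbg1, Id3 and Igfbp2 were each lost in at least 1 case. There were 5 calls without LPS replicate 2 and 5 without LPS replicate 3, beside 52.9% and 58.1% of all genes.

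With CLA more markers were called lower than higher. Against LPS, 2 were called higher, 10 lower and 21 were not called. This is 12 of 33, beside 63.1% of all genes tested (40.4% higher and 22.6% lower). The median change was -0.29 against 0.09 over all genes. Of the 22 markers that passed the filter without LPS+siAtg5, 2 were called higher and 7 lower. With only LPS+CLA and LPS in the fit, 17 markers passed the filter. Of these, 3 were called higher and 8 lower, which is 11 of 17 beside 64.1% of all genes. Gja1 was again the highest call, with a lowest, median and highest value of 7.59, 9.42 and 9.68 FPKM with CLA and values of 3.05, 3.50 and 3.57 FPKM with LPS. It rose by 1.21 ± 0.10 (adjusted p = 3.17e-10). Aldoc had 0.89, 1.35 and 1.62 FPKM as lowest, median and highest with CLA and 0.33, 0.28 and 0.76 FPKM with LPS, a change of 0.66 ± 0.22 (adjusted p = 0.0114).

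Nes had the largest lower call with CLA, at 4.09, 4.34 and 4.77 FPKM as lowest, median and highest with CLA and 8.55, 9.49 and 7.41 FPKM with LPS. It fell by 0.82 ± 0.08 on the log2 scale (adjusted p = 5.34e-09). Slc1a3 ranged from 0.19 to 0.74 FPKM with CLA and from 1.09 to 2.50 FPKM with LPS, a change of -0.78 ± 0.21 (adjusted p = 0.00276). Fabp7 ranged from 2.01 to 3.28 FPKM with CLA and from 3.99 to 5.72 FPKM with LPS (-0.57 ± 0.18), Plpp3 from 0.66 to 1.20 and from 1.63 to 1.99 FPKM (-0.52 ± 0.14), and Aldh1l1 from 0.33 to 0.83 and from 0.95 to 1.47 FPKM (-0.46 ± 0.12). In these 5 genes every CLA library lay below every LPS library, as in 11 of the 34 markers, beside 18.9% of all genes tested. Igfbp2 (-0.50), Id3 (-0.40), Aqp4 (-0.37), Fgfr3 (-0.34) and Id4 (-0.30) were the other lower calls. Of these, Aqp4, Fgfr3 and Id4 had passed the filter only through LPS+siAtg5. They averaged 0.32, 0.07 and 0.16 FPKM with CLA and 0.72, 0.35 and 0.43 FPKM with LPS. The lower calls of Fgfr3, Id4, Igfbp2 and Fabp7, and the higher call of Aldoc, were lost when single libraries were left out. LPS+CLA replicate 2 held the lowest value of its group for 25 of the 34 markers, beside 50.0% of all genes tested. Without it 11 markers were called, 3 higher and 8 lower, beside 64.4% of all genes.

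**Figure D5:**
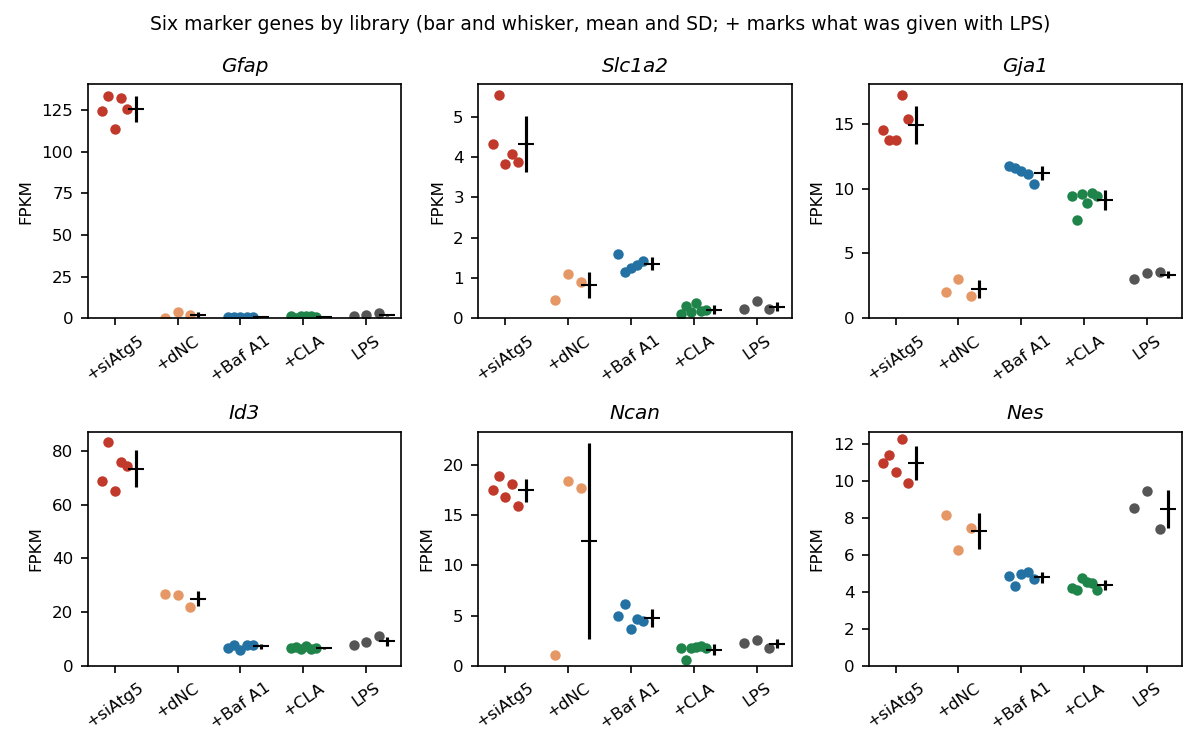
FPKM of 6 astrocyte marker genes in every library (points) with the mean and SD of each group (bar and whisker), from LPS+siAtg5 on the left to LPS on the right, each axis starting at 0. Gfap is high in LPS+siAtg5 alone, Gja1 is also at 10.4 to 11.7 FPKM with Baf A1, Id3 is at 21.98 to 26.9 FPKM in LPS+dNC, Ncan splits the LPS+dNC libraries, and Nes is lowest with Baf A1 and CLA.

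Some of the 34 genes share exons with a neighbour. On the opposite strand this touches their levels if reads were counted without strand, a setting that the labels leave out. For Aldh1l1 a neighbour, Gm45901, lies on the same strand, where stranded counting would not remove the overlap. In the GENCODE annotation of GRCm38, which may not be the one the authors used, 17.7% of the exon bases of Cnn3, 13.9% of those of Fgfr3 and 13.4% of those of Aldh1l1 lay under another gene, and for the other 31 genes this was under 10%. Stretches of 50 bases that also occur in another gene made up 24.0% of Cnn3, 11.6% of Fgfr3 and 10.0% of Aldh1l1. The levels of these 3 genes are uncertain to that extent.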

How the data were processed

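The authors deposited FPKM per gene symbol, rounded to 2 decimals, in 1 table and in 22 files of single libraries that were identical to its columns. Polyadenylated RNA was sequenced on an Illumina instrument, per the labels' protocols. CASAVA 1.7, fastp 0.18.0, Bowtie2 2.2.8, HISAT2 and StringTie 1.3.1 were used, per the submitters' processing notes. Their order, the genome build, the annotation and the strand setting were not given in the sources used here. No read counts were used, so depth is unknown, and counting intervals could not be had. The table had 15726 lines for 15725 symbols; the first of 2 lines of Plin2 was used.

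The 34 marker genes and the other gene lists were chosen with earlier results of these data known. The rule named 16 markers to be described library by library, with any called in the Baf A1 or CLA comparison; Sparcl1, Ncan, Bcan and Mt3 were added after their values were seen. Of other lists, up to 4 genes with the highest mean over all libraries were eligible, and genes that were the sole exception or listed at 0 were also named.

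Groups follow the treatment labels. Values were taken as log2(FPKM + 1), 11070 genes that reached 1 FPKM in 3 or more libraries entered the test, and the means of the 5 groups were estimated together from the 22 libraries in limma 3.58.1 under R 4.3.3, with trend and robust empirical Bayes, 17 residual degrees of freedom and Benjamini-Hochberg adjustment over all genes tested. The procedure was tested on simulated data in which few genes changed, as many up as down. Most genes were called in the LPS+siAtg5 comparisons, so the simulation does not show how reliable the calls are there. Comparisons that share libraries are not independent. Alternatives changed the pseudocount, the filter, the scaling, the libraries and the terms of the model. Promoters came from RefSeq (GRCm38.p6) and exon overlaps from GENCODE vM21.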

Additional observations from a re-analysis of the deposited data

Results flagged for a closer look

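In groups of 4 to 10 libraries, 12 of 102 combinations of marker and group held a library far from the others by Dixon's criterion, where chance gives about 1 in 20. LPS+CLA replicate 2 accounted for 7, each time as the lowest of its group: Cpe at 1.48 FPKM against 4.73 to 5.25 FPKM in the other 5 libraries, Ncan at 0.53 against 1.71 to 1.93, Ptn at 0.56 against 2.06 to 2.57, Fabp7 at 2.01 against 2.89 to 3.28, Cnn3 at 0.70 against 2.42 to 3.40, A2m at 0.21 against 0.36 to 0.44 and Aldh1l1 at 0.33 against 0.65 to 0.83. The same library was the lowest of its group for 50.0% of all genes tested. Of the other 5, Bcan was at 2.30 FPKM in LPS+CLA replicate 1 against 0.12 to 0.79, Fgfr3 at 0.19 FPKM in LPS+CLA replicate 3 against 0.02 to 0.08, and Slc1a3 at 1.38 FPKM in LPS+Baf A1 replicate 2 against 0.91 to 1.01. Gjb6 was at 0.06 FPKM in LPS+CLA replicate 5 and at 0.03 FPKM in LPS+Baf A1 replicate 5, where the others were at 0.02 or below. The groups of 3 libraries could not be looked at in this way.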

How the results depend on the processing

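When single libraries were left out, 30 to 33 markers were called in LPS+siAtg5 against LPS+dNC, beside 78% to 80% of all genes. Against LPS it was 32 to 33, beside 74% to 75%. With Baf A1, CLA and dNC against LPS the counts were 5 to 9, 8 to 12 and 10 to 19. The shares of all genes beside these were 51% to 58%, 58% to 64% and 52% to 59%. Array weights gave 14 calls for Baf A1 (8 higher), beside 66.0% of all genes. They gave 23 for LPS+dNC against LPS (22 higher), beside 65.7% of all genes. A further fit left out LPS+dNC replicate 1, LPS+CLA replicate 2 and LPS replicate 3. It gave 13 calls for Baf A1 (9 higher), 17 for CLA (5 higher) and 22 for LPS+dNC against LPS (20 higher). The shares of all genes beside these were 64.2%, 68.0% and 62.8%. For LPS+siAtg5 there were 31 calls against LPS+dNC and 33 against LPS, beside 82.65% and 78.5%. With only LPS+dNC and LPS in the fit there were 4 of 18, beside 48.8%. Under median-of-ratios scaling the markers summed to 995.6 FPKM on average in LPS+siAtg5, against 1155 FPKM as deposited, and their share of the LPS+siAtg5 level averaged over libraries was 5.74% with Baf A1 and 5.02% with LPS. Changes that reversed were S100b against LPS+dNC (-0.24, quantile), Ncan against LPS+dNC (-0.0495 both without LPS+dNC replicate 1 and without the 3 libraries, and at most 1.556, without LPS+dNC replicate 2) and, in LPS+dNC against LPS with array weights, A2m (0.30), Gfap (0.65), Mlc1 (0.36) and Slc1a3 (0.19); Gfap was at 0.63 there without the 3 libraries. The cause was not tested. Same-numbered libraries, compared for replicates 1 to 3, correlated at -0.131 to 0.155. This gave no sign that replicate numbers pair the libraries, but it cannot exclude such pairing. With the replicate block 31 and 33 markers were called in LPS+siAtg5 against LPS+dNC and LPS, beside 79.1% and 74.2% of all genes. For Baf A1, CLA and dNC against LPS there were 7, 9 and 13, beside 54.5%, 58.3% and 55.1%. Depth is unknown, so a marker listed at 0 cannot be called absent.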
